A study of Homo sapiens with 372 samples.

Results

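The mitotic cyclins and kinases examined here were 10 genes, all of which are among the 9664 genes listed in the deposited table of single-cell expression values. They are the cyclins CCNB1, CCNB2 and CCNA2, the kinase CDK1 and its small subunits CKS1B and CKS2, the kinases AURKA, AURKB and PLK1, and BIRC5. The set was chosen by name after earlier results from the same cells were known, with its members selected on their levels in the treated and control cells. The differences between conditions below are therefore a description of these cells and support nothing by themselves. All 10 passed the detection limit used here, a value above 0 in over 30% of cells of some condition, as did 9655 of the 9664 genes.

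The cells were A2780, an established line from a human ovarian cancer. They were left untreated (46 retained cells) or given 5 nM paclitaxel for 16 h (56 cells) or 48 h (53 cells), 75 µM celecoxib for 2 h (63 cells) or 16 h (61 cells), or both drugs at these doses for 16 h (59 cells, called the combination). Paclitaxel stabilizes microtubules, and celecoxib inhibits cyclooxygenases. Single cells were captured on the Fluidigm C1 system and their polyA-tailed RNA was copied at full length by Smart-seq2, with spike-in RNAs added to each well. The labels name no separate cultures or captures within a condition, and the libraries of each condition share 1 code of their own in the labels. Each condition was therefore counted as 1 sample, the condition and its preparation cannot be told apart, and no test between conditions was made. The SD values below are spreads over cells. The only epithelial and mesenchymal markers of the lists used here that the table holds are KRT18, detected in 23.9 to 36.5% of the cells of a condition, and VIM, detected in 62.5 to 86.8%. The defining markers of ovarian, blood, vessel and stromal cells were not analysed here.

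Entry into mitosis is driven by CDK1 bound to a B-type cyclin, after cyclin A has helped to carry the cell through S phase and G2. Aurora A and Polo-like kinase 1 act at the centrosomes and switch on the cyclin B kinase, while Aurora B works with survivin, the product of BIRC5, at centromeres and at the midzone. CKS1 and CKS2 are small proteins that dock the cyclin-dependent kinases onto phosphorylated substrates, and CKS1 also helps the SKP2 ubiquitin ligase to recognise the inhibitor p27. Transcripts of most of these genes build up in G2 and are low in G1, under the control of the DREAM, B-MYB and FOXM1 complexes that act at CHR elements and CCAAT boxes in their promoters.

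Because the genes are known for sharing these promoter elements, the 100 bases before the transcription start were read for them from the RefSeq promoters of GRCh38.p14. Of the 10 genes, 8 matched an entry. The CHR-like letters TTTGAA and TTTAAA and the CCAAT letters were searched on both strands (TTCAAA and ATTGG on the other). Both kinds of match stood together in 6 of the 8 genes (75.0%), against 542 of all 27305 genes with an entry (1.98%), a gene being counted when any of its entries held both in 1 window. Counted by entry, the share over all 35116 windows of the same length was 1.59%. A CHR-like match, with or without the other kind, was found in 8.24% of all windows and a CCAAT match in 18.1%. CCNA2 held an ATTGG match without these CHR-like letters, and the AURKB windows held neither. The 6 windows with both are shown 5′ to 3′ on the + strand, with the matches in capitals.
CCNB1 at chr5:69167050-69167149: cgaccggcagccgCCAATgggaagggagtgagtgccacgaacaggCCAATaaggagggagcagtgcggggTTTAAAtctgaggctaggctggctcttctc
CCNB2 at chr15:59105046-59105145: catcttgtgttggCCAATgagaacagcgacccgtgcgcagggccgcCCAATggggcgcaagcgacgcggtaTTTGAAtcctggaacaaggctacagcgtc
CDK1 at chr10:60778378-60778477: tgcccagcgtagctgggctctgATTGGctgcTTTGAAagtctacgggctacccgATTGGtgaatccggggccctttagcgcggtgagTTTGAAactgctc
PLK1 at chr16:23678789-23678888: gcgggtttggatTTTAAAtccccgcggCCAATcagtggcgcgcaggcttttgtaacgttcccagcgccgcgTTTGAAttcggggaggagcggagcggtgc
CKS1B at chr1:154974581-154974680: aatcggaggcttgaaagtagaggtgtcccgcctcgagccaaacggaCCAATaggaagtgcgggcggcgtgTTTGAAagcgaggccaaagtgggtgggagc
CKS2 at chr9:89311095-89311194: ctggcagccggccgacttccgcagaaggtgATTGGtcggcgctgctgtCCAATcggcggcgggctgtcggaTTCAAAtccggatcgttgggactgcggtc
In CCNB1, CCNB2, PLK1, CKS1B and CKS2 a CHR-like match began 29 or 30 bases before the start, and no CHR-like match overlapped a CCAAT match. CKS1B and CKS2 therefore hold the same 2 kinds of letters as CCNB1, CCNB2 and PLK1. A link between these letters and the transcript levels given below was not tested. CDK1 has a second entry with an earlier start, whose window held neither. These are matches of letters, not measured binding.

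The values were compared on the E-value scale, E = log2(N/10 + 1), where N is the TPM of a gene, its transcript abundance relative to all transcripts of the cell, divided by a factor of that cell. The factor is the TPM of the most abundant spike-in molecule there over the mean TPM of this molecule across cells. N is per transcript length, so levels can be set side by side between genes. On this deposited scale the total RNA of a cell enters every gene, and the log2 median total relative to the control cells was -0.99 (paclitaxel, 16 h), -0.64 (paclitaxel, 48 h), -0.76 (celecoxib, 2 h), -1.52 (celecoxib, 16 h) and 0.49 (combination). For that reason each value is also given at the same total per cell, that is, after the linear values of every cell were scaled to 1 common total. Read depth per cell is unknown, and the median number of genes detected per cell lay between 6125.5 (paclitaxel, 16 h) and 6630 (control). A gene was counted as lower or higher when its mean E-value differed by over log2 of 1.5.

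CCNB1, the B-type cyclin that is the main partner of CDK1 at mitotic entry, was the cyclin with the highest level. Its E-value in the control cells ranged from 2.43 to 8.16 with a median of 6.56, and all 46 cells detected it. The mean E-value was 6.30 ± 1.35 (SD, 46 cells) in the control, 4.29 ± 2.02 at 16 h and 3.79 ± 2.29 under 48 h paclitaxel, 3.98 ± 2.31 at 2 h and 2.70 ± 2.13 under 16 h celecoxib, and 4.35 ± 2.86 under the combination. Control cells were thus the highest on average and the 16 h celecoxib cells the lowest, but single cells of each treatment overlapped the control cells, as the plot of E-values by cell shows. Under the combination the range of CCNB1 ran from 13 cells at 0 to the highest E-value of any condition, 9.71. Relative to the control, mean E-values of CCNB1 differed by -2.01 and -2.51 under 16 and 48 h paclitaxel, -2.32 and -3.60 under 2 and 16 h celecoxib and -1.96 under the combination. Scaled to the same total, these differences were -1.28, -1.94, -1.82, -2.53 and -2.41, so that the combination came close to 16 h celecoxib.

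**Figure D1:**
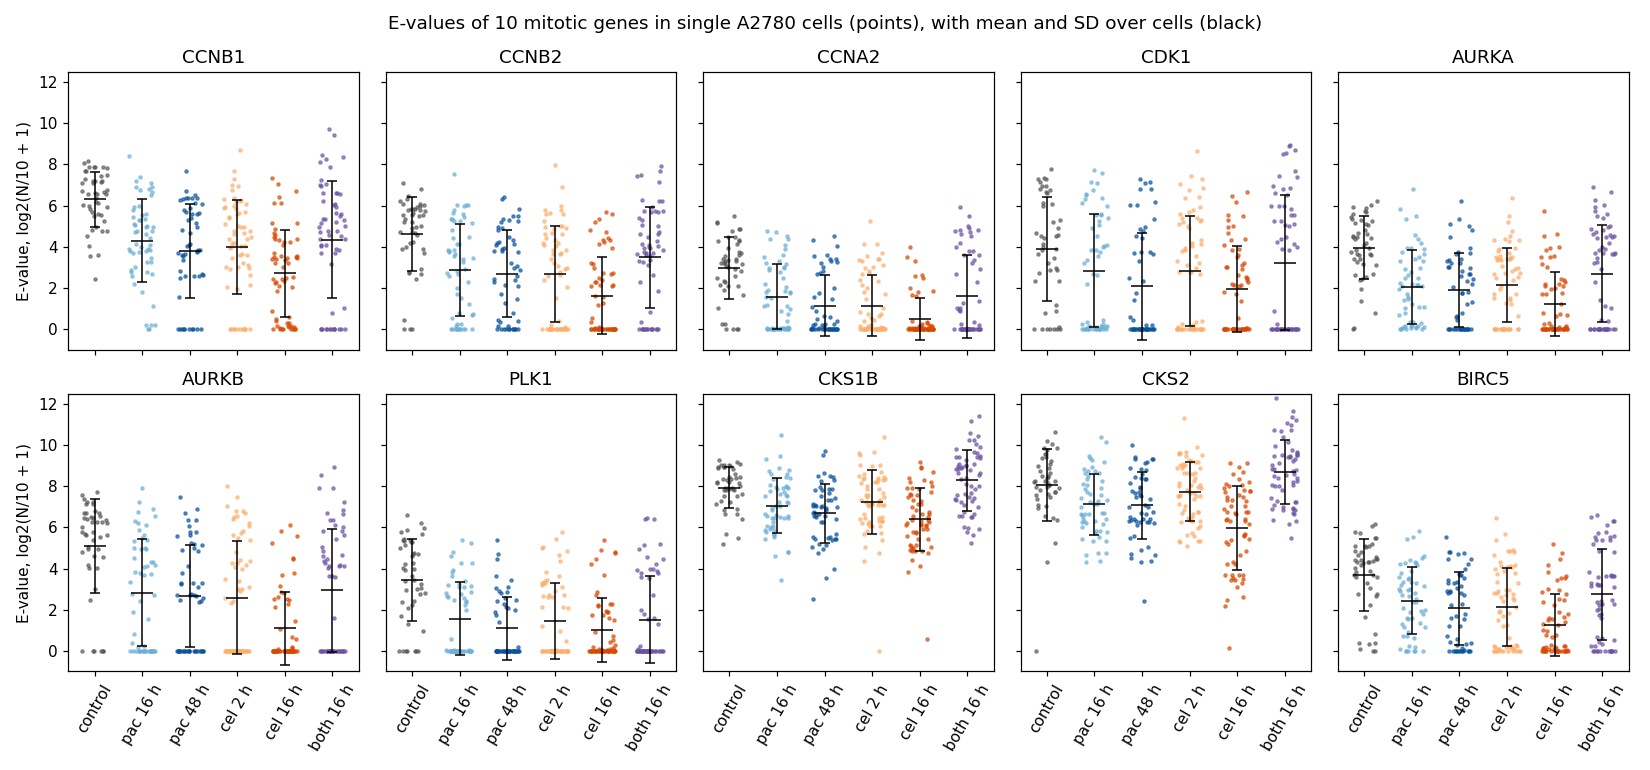
E-values (log2(N/10 + 1), deposited scale) of the 10 genes in each of the 338 cells (points) by condition, with the mean and SD over cells in black (pac, paclitaxel; cel, celecoxib; both, combination). Most genes have a band of cells at 0 in the treated conditions, for example 37 of 61 cells for AURKB under 16 h celecoxib, whereas CKS1B and CKS2 are detected in nearly all cells.

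CCNB2, the second B-type cyclin, followed CCNB1 at a lower level. Its median E-value was 5.19 in the control cells (range 0 to 7.09) and 0.55 in the cells under 16 h celecoxib (range 0 to 5.67). The mean E-value was 4.62 ± 1.80 in the control, 2.87 ± 2.24 and 2.69 ± 2.12 under 16 and 48 h paclitaxel, 2.65 ± 2.33 and 1.62 ± 1.88 under 2 and 16 h celecoxib, and 3.48 ± 2.45 under the combination. After scaling to the same total the combination differed from the control by -1.54 and 16 h celecoxib by -2.16.

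CCNA2, the cyclin of S phase and G2, had the lowest control mean of the 10 genes, 2.98 ± 1.503. Its mean was 1.57 ± 1.59 and 1.13 ± 1.48 under 16 and 48 h paclitaxel, 1.13 ± 1.47 and 0.49 ± 1.01 under 2 and 16 h celecoxib, and 1.60 ± 2.01 under the combination. CCNA2 was detected in 42 of 46 control cells (91.3%, exact Clopper-Pearson 95% interval 79.2 to 97.6%) and in 26 of 61 cells under 16 h celecoxib (42.6%, 30.0 to 55.9%). These intervals, as all binomial intervals below, cover counting error only. About 9.17% of the CCNA2 transcript is shared with EXOSC9, which lies on the other strand, and Smart-seq2 does not keep the strand of a read.

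CDK1, the catalytic subunit, had the widest spread over the control cells. In the control cells its E-value ranged from 0 to 7.78 with a median of 4.05, and 7 of 46 cells were at 0. The mean was 3.89 ± 2.53 in the control, 2.84 ± 2.75 and 2.07 ± 2.61 under 16 and 48 h paclitaxel, 2.82 ± 2.69 and 1.96 ± 2.09 under 2 and 16 h celecoxib, and 3.23 ± 3.26 under the combination. Its differences from the control at the same total were -0.57, -1.43, -0.67, -1.08 and -0.93 in the same order of treatments, the smallest of the 8 genes other than CKS1B and CKS2 in every treatment but 48 h paclitaxel. The condition accounted for 2.90% of the variance of CDK1 over cells at the same total, near the median of all genes (2.89%), compared with 13.0% for CCNB1 and 13.4% for AURKB.

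CDK1 needs a cyclin, so the cells were also counted by which of the 2 transcripts they held. CCNB1 and CDK1 were detected together in 39 of 46 control cells, 41 of 56 and 25 of 53 cells under 16 and 48 h paclitaxel, 40 of 63 and 34 of 61 cells under 2 and 16 h celecoxib, and 29 of 59 cells under the combination. CCNB1 without CDK1 was seen in 7, 13, 18, 12, 19 and 17 cells in the same order, and CDK1 without CCNB1 in 0, 1, 2, 3, 2 and 4 cells. Where only 1 of the pair was detected it was thus mostly the cyclin, whose level is also the higher of the pair.

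CKS1B and CKS2, the small docking subunits, had the highest levels of the set and, at the same total, the smallest differences from the control in all 5 treatments. CKS1B had a mean E-value of 7.93 ± 0.99 in the control, 7.07 ± 1.35 and 6.68 ± 1.44 under 16 and 48 h paclitaxel, 7.23 ± 1.56 and 6.39 ± 1.51 under 2 and 16 h celecoxib, and 8.29 ± 1.47 under the combination. CKS2 had means of 8.05 ± 1.75, 7.12 ± 1.497, 7.07 ± 1.62, 7.74 ± 1.44, 5.97 ± 2.04 and 8.69 ± 1.57 in the same order. On the deposited scale both were therefore highest under the combination, where the other 8 genes were highest in the control.

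The direction of CKS1B and CKS2 under the combination depended on the scale. CKS2 differed from the control by 0.64 on the deposited scale, the only member past the limit upwards, and by -0.04 at the same total per cell. CKS1B differed by 0.35 and by -0.34. Of the 46 control cells 1 had CKS2 at 0, which lowers the control mean of CKS2. The 45 control cells that detected CKS2 had means of 8.23 as deposited and 7.66 at the same total. The combination cells, all detecting it, had 8.69 and 7.45. The deposited gap to those 45 control cells is within the limit. All 5 same-total differences of CKS1B lay between -0.63 (paclitaxel, 48 h) and -0.06 (paclitaxel, 16 h), and those of CKS2 between -0.71 (celecoxib, 16 h) and 0.28 (celecoxib, 2 h). Detection gave no contrast for the pair, since CKS1B was found in 337 of the 338 cells and CKS2 in 337. Of the CKS1B transcript, 26.5% is shared at 97% identity or more over at least 50 bases with 6 processed copies (CKS1BP1 to CKS1BP4, CKS1BP6 and CKS1BP7), so its value is uncertain to the extent that reads of these copies were counted with it.

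AURKB, the kinase of the chromosomal passenger complex, had the largest difference from the control of the 10 genes under 16 h celecoxib. Its median E-value was 5.78 in the control cells (range 0 to 7.73) and 0 in the cells under 16 h celecoxib (range 0 to 6.12). The mean was 5.09 ± 2.29 in the control, 2.83 ± 2.61 and 2.66 ± 2.49 under 16 and 48 h paclitaxel, 2.59 ± 2.75 and 1.09 ± 1.78 under 2 and 16 h celecoxib, and 2.94 ± 2.98 under the combination. It was detected in 40 of 46 control cells (87.0%, 73.7 to 95.1%) and in 24 of 61 cells under 16 h celecoxib (39.3%, 27.1 to 52.7%). At 16 h celecoxib the difference from the control was -4.00 as deposited and -3.22 after scaling to the same total, where 0% of the 9655 genes lay below it.

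AURKA, the centrosomal Aurora kinase, was lower than in the control in every treatment. Its mean was 3.94 ± 1.53 in the control, 2.04 ± 1.78 and 1.91 ± 1.80 under 16 and 48 h paclitaxel, 2.15 ± 1.79 and 1.20 ± 1.55 under 2 and 16 h celecoxib, and 2.70 ± 2.35 under the combination. The 2 Aurora kinases parted in detection under 16 h paclitaxel, where AURKA was still found in 52 of 56 cells (92.9%, 82.7 to 98.0%) and AURKB in 37 (66.1%, 52.2 to 78.2%). The lower quartile of AURKA under 16 h paclitaxel was 0.26, so part of these detections lay close to 0. Over the 52 detecting cells its mean was 2.20 ± 1.75. At 48 h AURKA was detected in 35 of 53 cells (66.0%, 51.7 to 78.5%), with a mean of 2.895 ± 1.42 over them. In no control cell and in no cell under 16 h paclitaxel was AURKB detected without AURKA, while 7 cells each under 48 h paclitaxel, under 2 h celecoxib and under the combination and 3 cells under 16 h celecoxib held AURKB alone.

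PLK1, the Polo-like kinase that acts from mitotic entry to cytokinesis, was the kinase found in the fewest treated cells apart from 16 h celecoxib. It was detected in 39 of 46 control cells (84.8%, 71.1 to 93.7%), 30 of 56 and 21 of 53 cells under 16 and 48 h paclitaxel, 29 of 63 and 32 of 61 cells under 2 and 16 h celecoxib, and 25 of 59 cells under the combination (42.4%, 29.6 to 55.9%). The mean E-value was 3.46 ± 2.00, 1.56 ± 1.79, 1.09 ± 1.53, 1.45 ± 1.84, 1.03 ± 1.56 and 1.52 ± 2.13 in the same order. Its median was 0.04 under 16 h celecoxib, where 29 of 61 cells were at 0. The 32 cells that detected it there had a mean E-value of 1.96 ± 1.68. PLK1 was the only member whose lowest mean at the same total was under the combination. Overlapping genes on the other strand share 10.0% of its transcript.

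BIRC5, which encodes survivin, the partner of Aurora B, had means of 3.68 ± 1.75 in the control, 2.44 ± 1.62 and 2.06 ± 1.76 under 16 and 48 h paclitaxel, 2.14 ± 1.89 and 1.27 ± 1.504 under 2 and 16 h celecoxib, and 2.75 ± 2.21 under the combination. Its same-total difference from the control was -0.62 at 16 h and -1.08 under 48 h paclitaxel, -1.06 and -1.56 under 2 and 16 h celecoxib, and -1.23 under the combination. Its lowest mean, like that of AURKB, was under 16 h celecoxib on both scales, and all 5 differences were smaller than those of AURKB.

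Over the whole set, the paclitaxel question, whether the mitotic genes differ after 16 and 48 h, gave 10 of 10 members below the control by over 1.5-fold on the deposited scale at both times. The share of all 9655 genes that passed the same limit downwards was 37.3% at 16 h and 26.6% at 48 h. After scaling to the same total 7 of 10 were lower at 16 h and 9 of 10 at 48 h, where the share of all genes was 10.0% and 5.78%. The median difference of the members was -1.03 at 16 h and -1.41 at 48 h, against -0.07 and 0.00 for all genes. The exceptions at 16 h were CKS1B, CKS2 and CDK1 (-0.57), and at 48 h CKS2. With linear means in place of mean E-values at the same total, the count was 4 of 10 at 16 h (5.93% of all genes) and 7 of 10 at 48 h (2.97% of all genes).

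With celecoxib, 9 of 10 members were lower at 2 h and 10 of 10 at 16 h on the deposited scale, with 25.7% and 43.9% of all genes. The member not lower at 2 h was CKS2 (-0.31). Scaled to the same total, the counts were 8 of 10 at 2 h (8.12% of all genes) and 9 of 10 at 16 h (7.95% of all genes), the exceptions being CKS1B and CKS2 at 2 h and CKS1B at 16 h. The median of the members was -1.38 and -1.78, against -0.02 and 0.03 for all genes. With linear means at the same total 6 of 10 were lower at 2 h (4.14% of all genes) and 7 of 10 at 16 h (3.83% of all genes). CCNB1, CCNB2, CCNA2, AURKA, AURKB, CKS2 and BIRC5 had their lowest mean under 16 h celecoxib on this scale as well as on the deposited one.

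**Figure D2:**
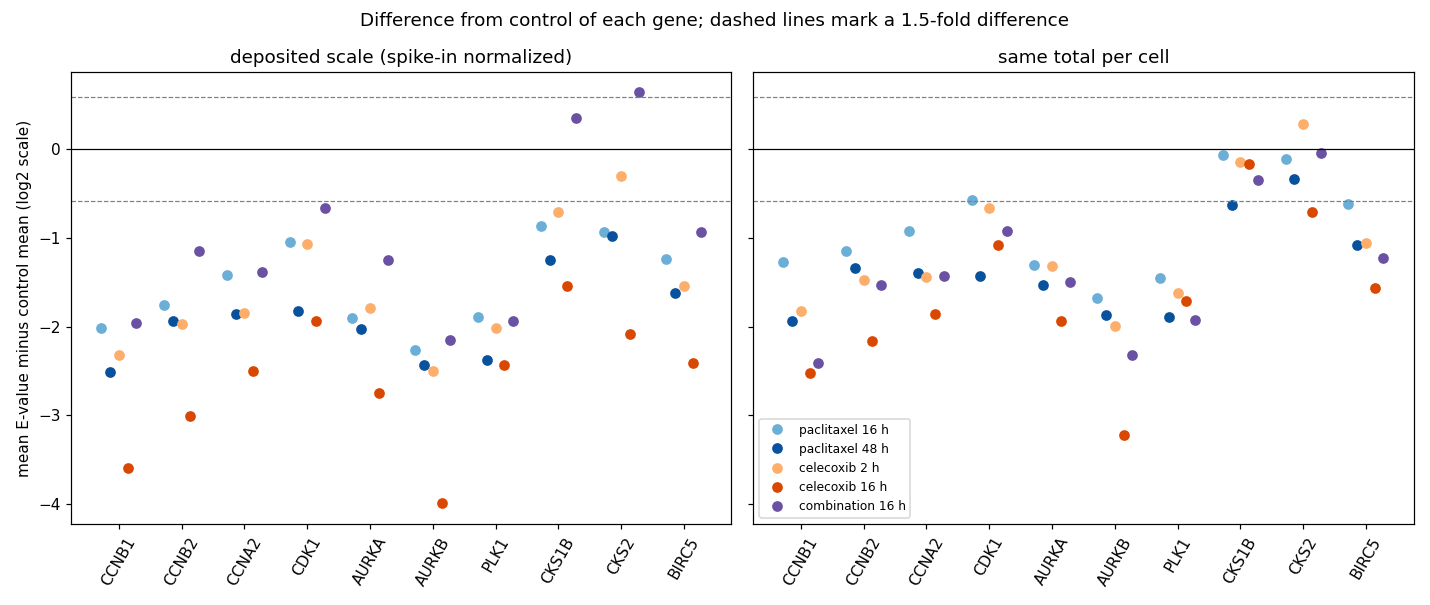
Difference of the mean E-value of each gene from the control mean (log2 scale) for the 5 treatments, as deposited (left) and at the same total per cell (right), with dashed lines at a 1.5-fold difference in either direction. All points of the 8 genes other than CKS1B and CKS2 lie below 0 on both scales, and the combination points of CKS1B (0.35) and CKS2 (0.64) lie above 0 on the deposited scale only.

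Under the combination, most listed genes had higher values than in the control on the deposited scale, and most of the mitotic genes did not. The median over all genes was 0.33 and the median of the members -1.20. Of the 10 members 8 were lower by over 1.5-fold, where 1.76% of all genes were, and 1 of 10 (CKS2) was higher, where 30.4% of all genes were. After scaling to the same total the 8 genes other than CKS1B and CKS2 were lower (5.8% of all genes), with a median over the 10 of -1.46 against 0.02 for all genes.

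The combination result depended on how cells were averaged. The ratio of linear means weights the cells with high values, and on the deposited scale it left 1 member lower (PLK1, -1.13), where 0.414% of all genes were, and put 2 higher (CKS1B, 0.76, and CKS2, 0.85), where 56.8% were. CDK1 turned from -0.66 in mean E-value to 0.55 in linear means. CCNB1 shows the distance between both measures, with a mean E-value of 6.30 in the control and 4.35 under the combination but a mean N of 1092 and 824. After scaling to the same total the linear means gave 7 of 10 members lower (4.02% of all genes).

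**Figure D3:**
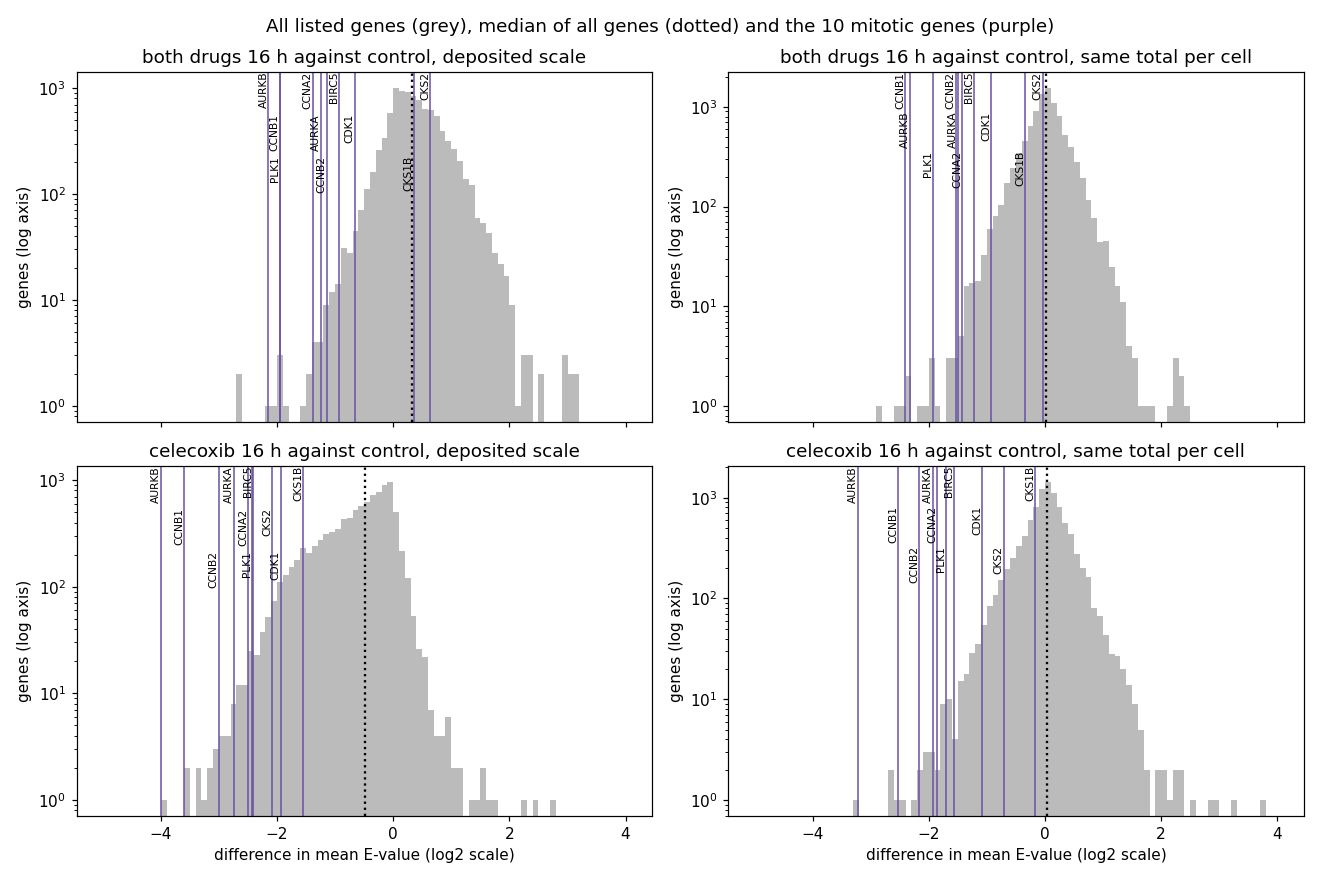
Distribution over all 9664 listed genes (grey, log axis) of the change in mean E-value relative to control cells under the combination (top) and under 16 h celecoxib (bottom), as deposited (left) and at the same total per cell (right); the dotted line is the median of all genes and purple lines are the 10 mitotic genes. Under the combination the grey distribution is centred at 0.33 on the deposited scale while 8 of the 10 lines lie past the 1.5-fold limit below 0, and CKS1B and CKS2 lie near or above the centre.

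The combination was also set against each single drug at 16 h, first on the deposited scale. Relative to 16 h paclitaxel 4 of 10 members were higher (CCNB2, AURKA, CKS1B and CKS2), where 62.5% of all genes were, while CCNB1 (0.06), CCNA2 (0.03) and PLK1 (-0.05) had nearly the same mean in both. Relative to 16 h celecoxib 9 of 10 were higher, all but PLK1, where 66.0% of all genes were. The median of the members was 0.35 and 1.57, against 0.80 and 0.88 for all genes. Scaled to the same total, the members were slightly below 16 h paclitaxel, with a median of -0.43 and 3 of 10 lower (CCNB1 -1.13, AURKB -0.65 and BIRC5 -0.61), where 1.64% of all genes were. Relative to 16 h celecoxib the median was 0.38 and 3 of 10 were higher (AURKB 0.90, CKS2 0.67 and CCNB2 0.63), where 5.03% of all genes were.

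The labels give each library a running number, which was cut here into blocks of 96, and most conditions lay in 1 block. The blocks are inferred from these numbers alone. The control cells lay in block 4, with 31 of the 53 cells under 48 h paclitaxel, so that this comparison can be made within a block. There all 10 members were lower than in the control and their median difference was -1.82, compared with -2.13 for the 22 cells of block 2. The combination was split over block 1 (34 cells), which also held the cells under 16 h paclitaxel, and block 3 (25 cells), which also held those under 16 h celecoxib. Against the control the median of the members was -0.76 for the block 1 cells and -1.63 for the block 3 cells, with 7 and 8 members lower. Within block 1 the combination differed from 16 h paclitaxel by a median of 0.75, and within block 3 from 16 h celecoxib by 1.08, both on the deposited scale. The parts of the block and of the well in this split were not tested.

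The order of the conditions was the same at its ends for most members. On the deposited scale all 10 genes had their lowest mean under 16 h celecoxib, and in 7 of the 8 genes other than CKS1B and CKS2 the combination came next after the control. PLK1 had 16 h paclitaxel in that place. Scaled to the same total, the second place went to 16 h paclitaxel in all 8 of these genes. Of the 50 gaps between neighbours in these orders 0 exceeded the larger SD of the 2 neighbours, on either scale, so no neighbouring pair of conditions was separated beyond the spread over cells. The condition accounted for a median of 9.48% of the variance over cells of the members at the same total, and for 2.89% over all genes.

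The number of the 10 genes that a cell held differed between control and treated cells. The median was 10 genes in the control, 9 and 8 under 16 and 48 h paclitaxel, 7 and 6 under 2 and 16 h celecoxib, and 7 under the combination. All 10 were found together in 32 of 46 control cells (69.6%, exact interval 54.2 to 82.3%) but in 9 of 53 cells under 48 h paclitaxel (17.0%, 8.07 to 29.8%) and 11 of 61 under 16 h celecoxib (18.0%, 9.36 to 30.0%). Under the combination 14 of 59 cells held all 10 (23.7%, 13.6 to 36.6%) and 16 held at most 5 (27.1%, 16.4 to 40.3%), compared with 2 of 46 control cells (4.35%, 0.531 to 14.8%). Detection over all genes was also highest in the control, with a median of 6630 genes per cell. That median was 6125.5 and 6351 under 16 and 48 h paclitaxel, 6158 and 6329 under 2 and 16 h celecoxib, and 6129 under the combination. The combination had the highest total per cell. The part of general detection in the counts of members was not tested.

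The deposited level was also taken over the cells that did detect a gene. For CCNB1 the 46 detecting cells of the combination had a mean E-value of 5.58 ± 1.88, against 6.30 ± 1.35 in the 46 control cells, and for AURKB the 32 detecting cells had 5.43 ± 1.65 against 5.85 ± 1.22 in 40 control cells. Scaled to the same total, these cells had 4.30 ± 1.71 against 5.76 ± 1.06 for CCNB1 and 4.08 ± 1.57 against 5.22 ± 1.03 for AURKB. For both genes the share of cells with a transcript and the level at the same total in those cells were below the control. CDK1 went the other way, with 5.77 ± 2.04 in the 33 detecting cells of the combination against 4.59 ± 2.08 in 39 control cells on the deposited scale, and 4.42 ± 1.59 against 4.011 ± 1.79 at the same total.

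A score was made for each cell as the mean over the 10 genes of the E-value minus the control mean, at the same total per cell. Its median was 0.32 in the control, -0.81 and -1.56 under 16 and 48 h paclitaxel, -1.56 and -1.93 under 2 and 16 h celecoxib, and -1.61 under the combination. High-scoring cells were still present after each treatment. The score exceeded the upper quartile of the control cells (0.91) in 12 of 46 control cells (26.1%), in 6 of 56 (10.7%, 4.03 to 21.9%) and 3 of 53 (5.66%, 1.18 to 15.7%) under 16 and 48 h paclitaxel, in 8 of 63 (12.7%, 5.65 to 23.5%) and 6 of 61 (9.84%, 3.70 to 20.2%) under 2 and 16 h celecoxib, and in 5 of 59 under the combination (8.47%, 2.81 to 18.7%). The score is a range and not a cell class, and 14 control cells and 1 to 5 cells of each treatment lay within 0.25 of that limit. The highest score of any cell, 2.14, was that of a cell under the combination.

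**Figure D4:**
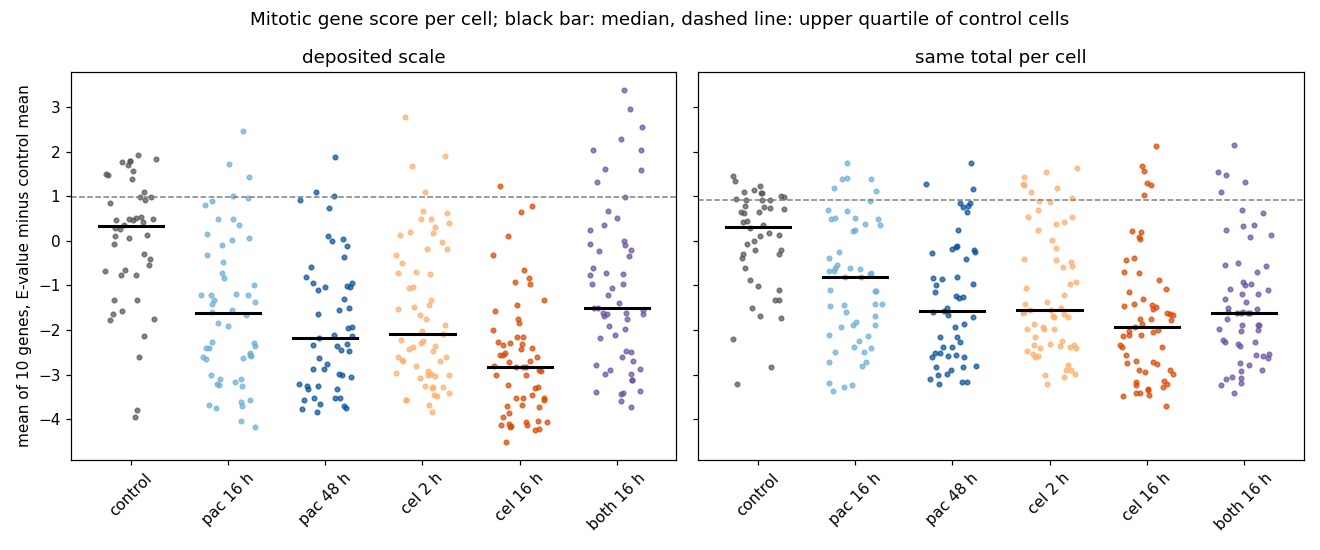
Score of each cell (mean over the 10 genes of the E-value minus the control mean) by condition as deposited (left) and at the same total per cell (right), with the median as a black bar and the upper quartile of the control cells as a dashed line. At the same total the treated medians lie between -1.93 and -0.81 and 3 to 8 cells of each treatment lie above the dashed line.

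The score moved with the amount of RNA in the cell. Within a condition its Pearson's r with the log2 total per cell was 0.29 (paclitaxel, 48 h) to 0.66 (control), and with the number of genes detected 0.16 to 0.65, even after every cell was scaled to the same total. The part of depth in the score was not tested. By the state that the authors' deposited annotation gives each cell, the 33 celecoxib 2 h cells called suppressive had a median score of -1.98 and the 26 called control -0.96. The 4 celecoxib 2 h cells called activation had a median of 1.36, and 3 of them were above the upper quartile of the control. At 48 h paclitaxel the medians were -1.71 in 25 suppressive and -1.19 in 28 control cells. At 16 h paclitaxel they were -1.69 in 31 suppressive, -0.54 in 23 control and 0.695 in 2 activation cells. The states were assigned by the authors from the same expression values, by a classifier trained on cells of 3 of the conditions, so the score is not independent of them and its difference is a description only. The cells with the control state also had a higher total than the suppressive ones, with a median log2 total of -0.34 against -1.07 under 48 h paclitaxel.

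The 10 genes varied together from cell to cell within every condition. The median Pearson's r over the 45 pairs, at the same total per cell, was 0.62 in the control (46 cells), 0.61 and 0.48 under 16 and 48 h paclitaxel (56 and 53 cells), 0.53 and 0.54 under 2 and 16 h celecoxib (63 and 61 cells), and 0.53 under the combination (59 cells). The cells of a condition share their preparation and differ in depth. AURKB and BIRC5, partners in the passenger complex, had r between 0.735 and 0.83 over the 6 conditions. CCNB1 and PLK1 had r = 0.82 in the control and 0.52 under 48 h paclitaxel, whereas CCNB1 and its kinase CDK1 had r between 0.28 and 0.54. Lowest of all pairs was that of the 2 small subunits under 2 h celecoxib, CKS1B with CKS2 (r = 0.03), which had r = 0.62 under 16 h paclitaxel. Under 2 h celecoxib 1 of 63 cells had CKS1B at 0, and the SD of CKS1B was 1.395 with that cell and 1.05 without it. In the control 1 of 46 cells had CKS2 at 0, with an SD of 1.54 and 1.055 in the same order. The r values were not computed without these cells. Pairs with CKS1B or CKS2 showed a median r of 0.44 for control cells and 0.30 under 2 h celecoxib, against 0.66 and 0.60 for the 28 pairs without them. Under paclitaxel the medians of both kinds of pair lay close together, at 0.60 and 0.62 at 16 h and 0.47 and 0.499 at 48 h. They were 0.46 and 0.61 under 16 h celecoxib and 0.45 and 0.56 under the combination.

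**Figure D5:**
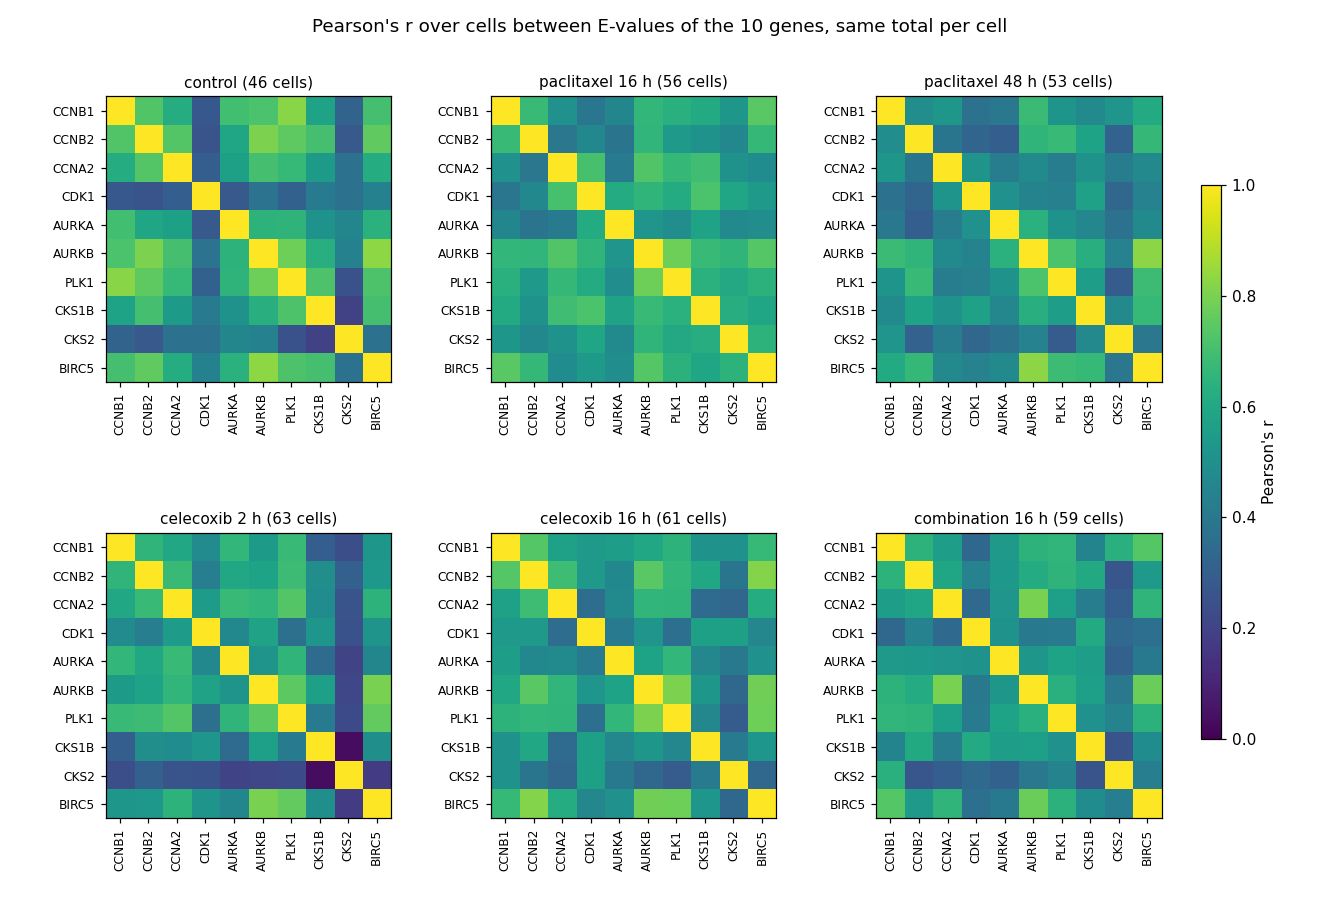
Pearson's r over cells between the E-values of each pair of the 10 genes at the same total per cell, 1 panel per condition (colour scale 0 to 1). The square of CKS1B with CKS2 is the lowest of its panel in the control (0.195), under 2 h celecoxib (0.03) and under the combination (0.26). In the control 1 cell had CKS2 at 0, and under 2 h celecoxib 1 cell had CKS1B at 0. The pair AURKB and BIRC5 lies between 0.735 and 0.83 over the panels.

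The genes outside the set whose E-values followed the score most closely over the 338 cells, with the condition means removed, were mitotic genes too. They were UBE2C (r = 0.85), the ubiquitin-conjugating enzyme of the anaphase-promoting complex, TOP2A (0.81), the topoisomerase that untangles chromosomes, the kinase PBK (0.81), HMGB2 (0.795), CENPF (0.79), the centrosomal kinase NEK2 (0.78), CDCA8 (0.77), the borealin subunit of the passenger complex, DLGAP5 (0.77), NUSAP1 (0.77) and the kinetochore gene NUF2 (0.76). Over all 9645 genes compared the median r was 0.02, and 5% of genes were above 0.22. Of these 10 genes 9 belong to the G2/M list of Seurat. The lowest values were those of PPIB (-0.33), NDUFS5 (-0.33), EID1 (-0.31), CD63 (-0.30) and MXRA8 (-0.30). At the same total UBE2C was lower with every treatment, with differences from -1.08 to -2.31, while TOP2A differed by -0.04 under 16 h paclitaxel and -0.84 under the combination.

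The wider pathway was described with gene lists chosen with earlier results known. Only some of the listed genes past the limit are named. The counts below are at the same total per cell unless called deposited, to be read beside the shares of all genes given above. As deposited, 43.9% of all genes were lower under 16 h celecoxib, and under the combination 1.76% were lower and 30.4% higher. At the same total 317 of the 9655 genes were higher under 48 h paclitaxel, and 320 and 712 under 2 and 16 h celecoxib. Of 16 genes of cyclin destruction and of the CKS ubiquitin ligase, 6 and 7 were lower under 16 and 48 h paclitaxel, 7 and 8 under 2 and 16 h celecoxib and 6 under the combination, and none was higher. As deposited 13 were lower under 16 h celecoxib, while 5 were lower and 2 higher under the combination. CDC20, the activator of the anaphase-promoting complex, had a mean E-value of 4.64 in the control, 2.84 and 2.56 under 16 and 48 h paclitaxel, 2.10 and 2.42 under 2 and 16 h celecoxib and 1.83 under the combination. PTTG1, which encodes securin, differed by -2.62 under 16 h celecoxib and -1.74 at 2 h. CDC16 and CDC23, core subunits of that complex, differed under 16 h celecoxib by 0.28 and 0.39, within the limit.

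Of 13 partners of the Aurora and Polo kinases outside the set, 1 and 5 were lower under 16 and 48 h paclitaxel, 2 and 5 under 2 and 16 h celecoxib and 5 under the combination, compared with 9 under 16 h celecoxib and 1 under the combination as deposited. KIF20A, the midzone kinesin that recruits PLK1, was lower in all 5 comparisons, with differences from -0.76 to -0.89. PRC1, which bundles the midzone microtubules, differed by -1.52 under 16 h celecoxib and -0.94 under the combination. TPX2, the activator of Aurora A, passed the limit under 48 h paclitaxel alone (-0.70). CEP192, the centrosomal scaffold, and INCENP, the scaffold of Aurora B, did not pass it in any treatment at the same total.

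The list for the CDK1 switch held 18 genes of kinases, phosphatases, inhibitors and their partners. With PLK4 and CDKN1B among them, it is broader than regulators of CDK1 itself. Of these 18 genes, 3 or fewer passed the limit in any treatment at the same total, with medians between -0.165 and -0.05. As deposited, 11 were lower (43.9% of all genes) and 1 was higher (37 of all 9655 genes) under 16 h celecoxib. Under the combination 5 of 18 were higher, where 30.4% of all genes were. CDKN1A, which encodes the inhibitor p21, was higher than in the control under 48 h paclitaxel (1.96) and under 16 h celecoxib (1.503), where its mean E-value was 2.79 and 2.34 against 0.83 in the control. Under the combination its mean was 0.72, a difference of -1.61 from celecoxib alone at 16 h. On the deposited scale these differences were 1.86, 1.00 and -0.86. GADD45A, another inhibitor of the cyclin B kinase, was higher in the same 2 treatments at the same total, by 0.77 and 0.95. As deposited these differences were 0.48 and 0.21, within the limit, and it was higher under the combination (0.795). PKMYT1, the membrane-bound inhibitory kinase of CDK1, was lower under 16 h celecoxib (-0.67) and under the combination (-0.59), and PPP2CA, the catalytic subunit of a phosphatase that opposes CDK1, was lower under 16 h paclitaxel (-1.20) and 48 h (-0.65).

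Of 18 transcription factors of mitotic genes, 4 and 2 were lower under 16 and 48 h paclitaxel, 4 and 1 under 2 and 16 h celecoxib and 4 under the combination, and TFDP2 (0.59) was higher under 2 h celecoxib. As deposited 11 were lower under 16 h celecoxib, while 1 was lower and 2 were higher under the combination, and TFDP2 differed by 0.04 under 2 h celecoxib. MYBL2, which encodes B-MYB, was lower in all 5 comparisons, with differences from -0.86 to -1.19 and a control mean of 1.92. E2F4, the DREAM subunit, was lower under 16 h paclitaxel (-1.33), under 2 h celecoxib (-0.70) and under the combination (-0.67). FOXM1, named after its values were seen, was not past the limit in any treatment at the same total. For comparison, 24 of the 47 G2/M genes of Seurat outside the set were lower under the combination and 24 under 16 h celecoxib, and 19 and 18 of its 42 S-phase genes, at the same total. The deposited values gave 12 (with 1 higher) and 44 for the G2/M genes, and 10 (with 2 higher) and 40 for the S-phase genes.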

How the data were processed

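Single A2780 cells from 6 conditions were analysed, each condition counted as 1 sample, since the labels name no separate cultures or captures within it. The authors trimmed reads with Trim Galore, ran RSEM 1.3.0 with the Bowtie2 aligner to obtain TPM for GENCODE version 28 transcripts and 3 spike-in sequences, divided each cell by the TPM of its most abundant spike-in RNA relative to the mean over cells, filtered cells and genes, and deposited the result on a log2 scale, E = log2(N/10 + 1), to 3 decimals. No column of values was left unmapped. The authors' deposited state of each cell is used by name only.

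Here N was recovered from E, and each cell was also scaled to the median total over the 9664 genes. Mean E-values were compared against a limit of log2 of 1.5, over the 9655 genes whose detection exceeded 30% of cells in some condition. With 1 sample a condition, no test was made. Shares carry exact Clopper-Pearson 95% intervals for counting error only, and correlations over cells are descriptions. No doublet caller was run, since the files hold no counts. The members, gene lists and comparisons were chosen with earlier results of these data known. Named genes are all 10 members, the 10 highest and 5 lowest correlations with the score, and some genes of each pathway list. Except for FOXM1, the latter were picked from a pool. The pool held every gene of a list past the limit where 5 or fewer are, and otherwise the 2 largest falls and rises in a comparison, on either scale. Genes left unnamed could pass the limit too. Examples at the same total are BUB1 (-0.99, 16 h celecoxib) and, under 16 h paclitaxel, NFYC (-1.07) and PPP2R1A (-0.74).

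The difference in means and the correlation with the score were first tested on resampled or shuffled cell values with planted changes. The totals after scaling were checked to be equal. The other steps were not tested in this way. Promoters came from RefSeq on GRCh38.p14, gene models from GENCODE version 44 on hg38, and shared transcript sequence from BLAST 2.17.0. The S and G2/M lists came from Seurat 5.3.0. Software was R 4.3.3 and Python 3.11.15 with scipy 1.17.1, pandas 2.3.3, matplotlib 3.10.9 and numpy 2.4.6. Alternatives were the scaling, linear means, a pseudocount of 1, medians, detection limits and the blocks inferred from library numbers. Others were wells noted as 0 or debris (1 retained cell), score limits, rank correlation and control cells alone. Linear means at the same total were added after the data were seen.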

Additional observations from a re-analysis of the deposited data

Results flagged for a closer look

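CKS2 differed from the control in opposite directions at the 2 times of celecoxib, once every cell was scaled to the same total. The difference in mean E-value was 0.28 at 2 h (63 cells) and -0.71 at 16 h (61 cells), and the difference between the times was not tested, since each time counts as 1 sample. On the deposited scale both were below 0, at -0.31 and -2.08. CKS2 was detected in all cells of both times. In the control 1 of 46 cells had it at 0. The other 45 had a mean of 7.66 at the same total, against 7.78 at 2 h and 6.79 at 16 h. The size of the difference at 2 h thus rests in part on that cell.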

How the results depend on the processing

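A value was taken as moved when it changed by over 1.5 times, or, for a share of cells, left its exact interval. Under the alternatives 136 values of the main results were not moved and 41 were. Of the differences of single genes, 241 were not moved, 205 were moved and 14 were reversed. Reversed means past the limit in the main result and of opposite sign in the alternative. The medians of members against the control stayed below 0 in every alternative. For 16 h paclitaxel the median was -1.03 at the same total per cell. With a pseudocount of 1 normalized TPM the medians were -3.04 (48 h paclitaxel), -2.84 (2 h celecoxib), -4.13 (16 h celecoxib) and -1.99 (combination). With linear means they were -1.14 (2 h celecoxib) and -0.28 (combination). With linear means at the same total, an alternative chosen after seeing the data, they were -0.50 (16 h paclitaxel, with 4 members lower), -0.82 (48 h paclitaxel), -0.69 (2 h celecoxib) and -0.995 (16 h celecoxib), and CKS1B turned to 0.044 (16 h paclitaxel), 0.137 (2 h celecoxib) and 0.141 (16 h celecoxib).

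For the combination against the control, linear means left 1 member lower and put 2 higher, with CDK1 at 0.55. The member higher by mean E-value, CKS2, left 0 higher at the same total (-0.04), with linear means at the same total, with medians over cells and in block 3 alone, and block 1 alone gave a median of -0.76. Against 16 h paclitaxel, members higher were 0 at the same total with either mean, 10 with linear means and 2 in block 3, and members lower were 3 at the same total, 1 with medians over cells and 1 in block 3. The median was -0.43 at the same total, 0.93 with linear means, 0.13 with the lower pseudocount, 0.66 with medians over cells, -0.34 with linear means at the same total, 0.75 in block 1 and -0.13 in block 3. CCNB2 turned to -0.39 at the same total, -0.49 with linear means at the same total and -0.14 in block 3, AURKA to -0.19 and -0.11, and CKS1B to -0.28 and -0.12 under the first 2 of these. Against 16 h celecoxib, members higher were 3 at the same total (median 0.38) and 1 with linear means at the same total (median 0.13, with 1 member lower), and CKS1B turned to -0.17 and -0.22. The causes were not tested.

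Above the 90th percentile of control lay 10.9% of control cells, a share fixed by the choice of that limit, although it is counted as moved. Shares above this limit were compared with the interval of the share above the upper quartile, which is another quantity. On the deposited scale 1.64% of 16 h celecoxib cells passed the upper quartile. Control cells alone shared 4 of the 10 genes most like the score. No paired analysis was possible because the result comes from no test and each condition counts as 1 sample. Detection is limited by read depth, which is unknown.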
